A study of Drosophila melanogaster with 3 samples.

Results

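The genes described here are the cathepsins of Drosophila melanogaster and CREG, whose ratios were measured in the midgut of larvae that lack the ecdysone receptor. They are the probes whose single gene symbol begins with Cts and a capital letter, or is cathD or CREG. There were 9 such probes, 1 for each of 9 genes, among 9904 named genes with a value on at least 1 array. A further 2 probes pair a cathepsin symbol with that of another gene and were left out by this rule. They gave mean log2 ratios of -0.32 ± 0.19 and -0.44 ± 0.22 (SD, n = 3 arrays each) and are not named. The set was selected on its log2 ratios on these same arrays, which were known, those of CREG and CtsL1 in particular, when it was proposed. The ratios of all 9 genes are therefore given as a description, without p-values of their own.

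Cathepsins are the proteases of the lysosome, the acidic compartment in which cells break down material taken up from outside or delivered by autophagy. Most belong to the papain family of cysteine proteases, cathepsin D is an aspartic protease, and both kinds are made as inactive precursors that are activated by removal of a propeptide. In insects some cathepsins are also released into the gut lumen as digestive enzymes. At metamorphosis the larval midgut is removed in a process that ecdysone triggers and that involves autophagy. CREG, named for a repressor of genes stimulated by the adenoviral protein E1A, is a small glycoprotein of the endosomes and lysosomes.

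The mutants carried the alleles EcRM554fs and EcRV559fs in trans and lacked all isoforms of the receptor. They also bore the heat shock inducible transgene hs-EcR-B230.1, which had supplied the receptor in earlier larval life, and they were taken at stage 2a, where development stops late in the last larval stage. Independent midgut samples of this genotype, called replicates 3, 4 and 6 after their titles, were each hybridised in Cy5 (635 nm) on 1 array against the same Cy3 (532 nm) reference. That reference mixed midgut RNA of the wild-type strain Canton S taken at various stages. A ratio thus holds the genotype, the stage, the strain background and the heat shock treatment together, and these cannot be told apart. No wild-type midgut of stage 2a was hybridised on these arrays, so the spread of the wild type does not enter. In a bulk tissue, fewer cells of a type and less RNA per cell cannot be told apart either.

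All values below are log2 ratios of mutant over reference, after the median of each array was set to 0. The direction is likely, not certain: the labels give the mutant as channel 1, but the value table does not state which channel was divided by which. With the opposite direction every sign and rank below would turn, and a share of the reference given for the mutant would be the share of the mutant found in the reference. CREG, CtsK1, CtsL1, cathD and CtsB would then lie 6.01-fold, 4.07-fold, 2.54-fold, 2.02-fold and 1.59-fold above the reference. The EcR probe stood at 1.72, 0.57 and 2.19 on replicates 3, 4 and 6 (adjusted p = 0.00443 in the limma fit), and without replicate 3 this call was lost (mean 1.38). Since transcripts of the transgene and of both alleles may reach that probe, it does not check the loss of receptor function. Across the 13027 features with a value on every array (9757 named genes and 3270 unnamed probes), the median SD between arrays was 0.104 and the arrays correlated with r of 0.897 to 0.939. These correlations are across features, which are not independent replicates, and the arrays share the reference and 1 dye orientation. The arrays carry ratios without intensities, so the absolute level of a cathepsin, and the presence of any tissue marker, could not be read from them. The precision is limited by the number of arrays, which is 3.

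The 9 genes are described here as 2 sets, a division made after the ratios were seen. CREG, CtsK1, CtsL1, cathD and CtsB lay below the reference on every array, by 1.59-fold to 6.01-fold on average. CtsK2, CtsL2, CtsL3 and CtsL4 lay within 0.27 of 0 on each array that measured them. In the limma fit across all features, 8 of the 9 genes could be tested, and 5 of these were lower, 0 higher and 3 not past an adjusted p of 0.05. At an unadjusted p under 0.05 the counts were again 5 lower and 0 higher. Among all 13027 features, 37.0% passed by the same rule, 23.6% as lower and 13.4% as higher. The 2 probes left out above, at -0.32 and -0.44, were both lower by that rule, and their means lie between the sets. On single arrays the first ranged from -0.54 to -0.19 and the second from -0.62 to -0.19. Both thus reached within 0.27 of 0, and the second also reached the values of CtsB. The median over the 8 tested genes was -0.84, against 0.0080 over all features. These counts describe a set chosen with its values known.

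**Figure D1:**
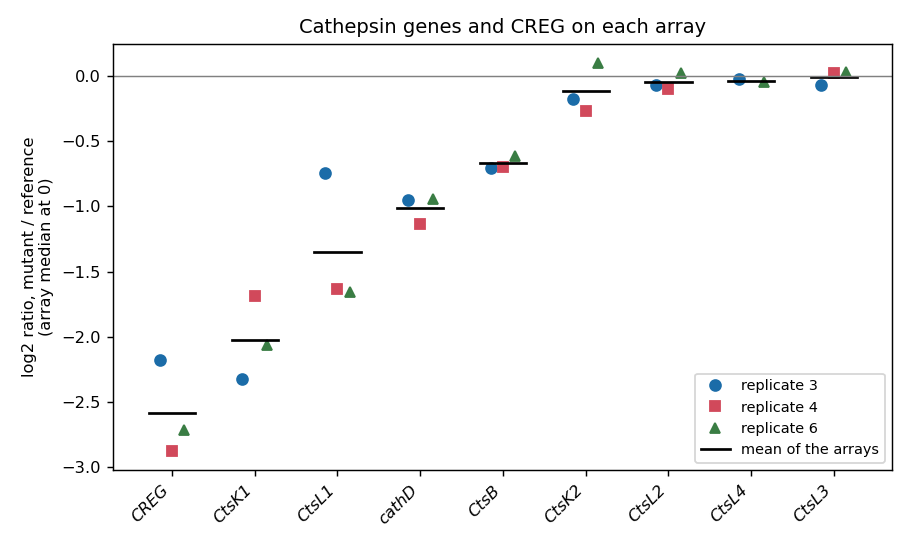
Log2 ratio of mutant over reference for each of the 9 genes (vertical axis, array median at 0). Each symbol is 1 array (replicate 3, 4 or 6), and the bar is the mean of the arrays, of which CtsL4 has 2. The 5 genes on the left are below 0 on all arrays, and the 4 on the right lie close to 0.

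CREG had the lowest ratio of the 9 genes. It stood at -2.18, -2.87 and -2.71 on replicates 3, 4 and 6, a mean of -2.59 ± 0.36 (SD, n = 3), which is 16.6% of the reference. Replicate 3 was the least extreme of the arrays. Counted from the bottom of the 13027 features, CREG ranked 10, and with the direction turned this would be its rank from the top. A ratio at least 4-fold below the reference, past the threshold of the fit, was found for 0.422% of all features, and for CREG and CtsK1 among the genes described here.

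Of the cysteine proteases, CtsK1 lay lowest. This gene is related to a cysteine protease first purified from blood cells of a flesh fly. Its ratios were -2.32, -1.69 and -2.07 on the arrays in the same order, with a mean of -2.03 ± 0.32, or 24.6% of the reference. Its pattern over the arrays ran opposite to that of CREG: replicate 3 was its lowest array and replicate 4 its highest. It ranked 48 from the lowest feature.

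CtsL1 encodes cathepsin L, formerly Cp1, the major endopeptidase of the papain family in the fly lysosome and a digestive enzyme of larvae. On replicate 3 it gave -0.75, and on replicates 4 and 6 it gave -1.63 and -1.66. Replicates 4 and 6 were nearly equal, while replicate 3 was the outlying array. The mean was -1.35 ± 0.52 (39.3% of the reference), the largest SD of the 9 genes. Without replicate 3 the mean was -1.65, and without replicate 4 or replicate 6 it was -1.20 and -1.19.

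The aspartic protease cathD varied less. It encodes cathepsin D, a lysosomal protease whose human counterpart is mutated in a neuronal storage disease. Its ratios were -0.95, -1.14 and -0.94 on replicates 3, 4 and 6, and its mean of -1.01 ± 0.11 corresponds to 49.6% of the reference. CtsB encodes cathepsin B, a cysteine protease that also removes dipeptides from the ends of proteins. With -0.70 on replicates 3 and 4 and -0.61 on replicate 6, it had a mean of -0.67 ± 0.05, or 62.8% of the reference. Its 3 arrays lay within 0.089 of each other, against 0.91 for CtsL1.

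The remaining K-type gene and the 3 further L-type genes, named for their similarity to cathepsins K and L, gave values near 0. CtsK2 stood at -0.18, -0.27 and 0.096 on replicates 3, 4 and 6 (mean -0.12 ± 0.19). CtsL2 stood at -0.067, -0.10 and 0.023 (mean -0.048 ± 0.064), and CtsL3 at -0.067, 0.019 and 0.030 (mean -0.0060 ± 0.053). In each of these genes the arrays had both signs, and none of the 3 passed the threshold. CtsL4 had no value on replicate 4 and was not tested. It gave -0.024 on replicate 3 and -0.050 on replicate 6. With no intensities at hand, a ratio near 0 from a transcript at equal levels and one from a probe near background could not be told apart.

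Ordered by their means, the genes ran from CREG through CtsK1, CtsL1, cathD and CtsB to CtsK2, CtsL2, CtsL4 and CtsL3. Between neighbours in this order, the arrays did not overlap for CtsK1 and CtsL1 (difference 0.68), for cathD and CtsB (0.34) or for CtsB and CtsK2 (0.55). They overlapped for CREG and CtsK1, whose means differed by 0.56, since CtsK1 was the lower of the pair on replicate 3. They also overlapped for CtsL1 and cathD, again because of replicate 3. The order among CtsK2, CtsL2, CtsL4 and CtsL3 lay within the spread of the arrays. The 4 L-type genes thus spanned from -1.35 to -0.0060, and the 2 K-type genes from -2.03 to -0.12.

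**Figure D2:**
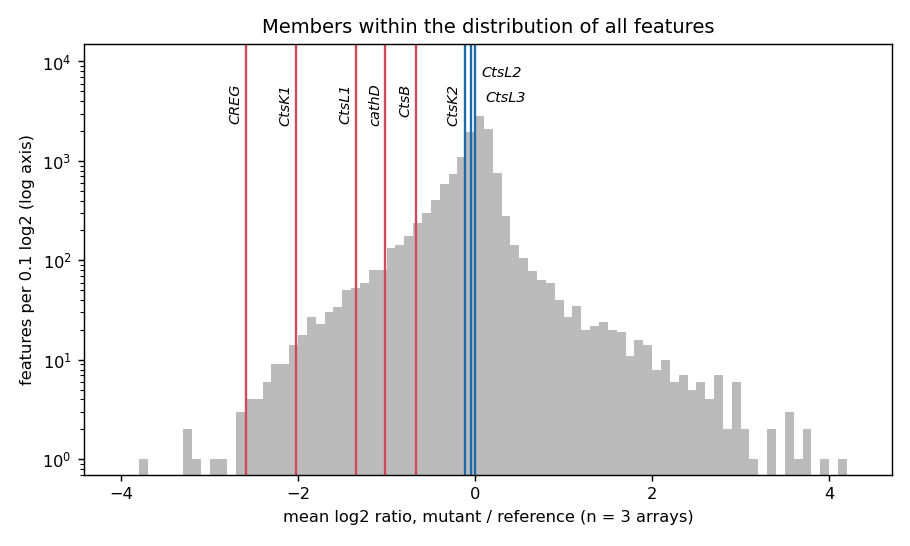
Histogram of the mean log2 ratio of all 13027 features (horizontal axis), with the number of features in bins of 0.1 on a log axis. Vertical lines mark the 8 tested genes, red for the 5 past an adjusted p of 0.05 and blue for CtsK2, CtsL2 and CtsL3. CREG and CtsK1 lie in the lower tail, with 0.0691% and 0.361% of features below them.

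Within that distribution, 2.03% of features lay below CtsL1, 3.85% below cathD and 7.91% below CtsB. For the genes near 0 these shares were 31.4% for CtsK2, 40.1% for CtsL2 and 47.3% for CtsL3. A ratio at least 2-fold below the reference and past the threshold was found for 3.92% of all features and for 4 of the 8 tested genes. Among these, cathD only just met the fold cut. It fell short of it, at -0.95, on the values as deposited and again without replicate 4. Being below 0 on all 3 arrays was common, at 33.8% of features, and held for 5 of the 8.

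Proteins related to the cathepsins, and those that act on them, came from lists written for this work, in which the genes above were left out. Among other papain-family proteases, CG6357 was lower, at -1.10, -0.82 and -1.53 on replicates 3, 4 and 6 (mean -1.15 ± 0.36, adjusted p = 0.000443, limma). Swim, a secreted relative of cathepsin B, gave 0.51, 0.17 and -0.023 and did not pass (mean 0.22, adjusted p = 0.135). Beside 23.6% lower and 13.4% higher among all features, 2 of 3 tested inhibitors of papain-family proteases were lower and 0 higher (median -0.21). At an unadjusted p under 0.05 the counts of inhibitors were the same. The clearest was cer (crammer), a small protein that resembles a cathepsin propeptide and inhibits cathepsin L. It stood at -0.93, -0.62 and -1.02 (mean -0.86 ± 0.21, adjusted p = 0.000299). The call of CG8066, at -0.21 ± 0.11 (adjusted p = 0.0494), was lost under several alternatives, among them leaving out replicate 3 or replicate 6, which left 1 inhibitor lower.

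The other aspartic proteases did not share the direction of cathD. Their median was 0.23. Of 8 tested, 4 were higher, 0 lower and 4 not past the threshold, beside 13.4% higher and 23.6% lower among all features. At an unadjusted p under 0.05 there were 5 higher and 0 lower. Bace gave 3.67, 4.25 and 4.60 (mean 4.18 ± 0.47, adjusted p = 6.93e-06) and had the highest mean of all features. CG33128 had a mean of 0.85 ± 0.08 (adjusted p = 7.5e-05), but its 4 probes ranged from 0.18 to 2.16. CG17134 at 0.54 ± 0.28 (adjusted p = 0.00649) and CG5860 at 0.22 ± 0.07 (adjusted p = 0.0289) were also higher, and both calls were lost without replicate 3, leaving 2 genes higher. The call of CG5860 was lost without replicate 4 as well.

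Lysosomal-type serine carboxypeptidases were mostly on the higher side as well. Their median was 0.30, and of 8 tested, 5 were higher, 2 lower and 1 not past the threshold. For comparison, 13.4% of all features were higher and 23.6% lower. CG3734 was at 0.99 ± 0.12 (adjusted p = 5.53e-05), hiro at 0.97 ± 0.28 (adjusted p = 0.000426) and CG18493 at 0.81 ± 0.48 (adjusted p = 0.0072). On the other side, CG2493 was at -0.94 ± 0.35 (adjusted p = 0.00114). Without replicate 3 the counts were 3 higher and 1 lower.

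Other lysosomal enzymes moved both ways. The median of 18 hydrolases was -0.21, with 3 higher, 8 lower and 7 not past the threshold. The shares over all features were 13.4% higher and 23.6% lower. CG7997, listed with the alpha-galactosidases, was at -3.38, -2.82 and -3.59 on replicates 3, 4 and 6 (mean -3.26 ± 0.39, adjusted p = 9.5e-06), a mean below that of CREG. Ppt2, a thioesterase that removes palmitate, was at -1.65 ± 0.25 (adjusted p = 2.8e-05), and Gal, a beta-galactosidase, at -1.43 ± 0.07 (adjusted p = 1.06e-05). The 3 higher hydrolases were all alpha-mannosidases. They were LManIII at 1.42 ± 0.49 (adjusted p = 0.00056, limma), LManVI at 0.95 ± 0.48 (adjusted p = 0.00327) and LManIV at 0.26 ± 0.06 (adjusted p = 0.0129). LManI, of the same family, was lower at -0.31 ± 0.15 (adjusted p = 0.0156). Without replicate 3, 2 hydrolases were higher.

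Among proteins that sort lysosomal enzymes or sit in the lysosomal membrane, 7 of the 11 tested were lower, 2 higher and 2 not past the threshold (median -0.53). Npc2a, which carries sterols in the lysosome lumen, gave -2.43, -2.46 and -2.62 (mean -2.50 ± 0.10, adjusted p = 2.14e-06). Cln3 was at -1.84 ± 0.10 (adjusted p = 6.42e-06) and Cln7 at -1.40 ± 0.07 (adjusted p = 1.11e-05). Both are lysosomal membrane proteins whose human counterparts are mutated in neuronal storage diseases. The membrane glycoprotein Lamp1 was at -0.74 ± 0.16 (adjusted p = 0.000344). The higher genes, named after their values were seen, encode adaptors of clathrin coats: Gga at 0.73 ± 0.05 (adjusted p = 0.000115) and AP-1gamma at 0.22 ± 0.10 (adjusted p = 0.0334), whose call was lost without replicate 3 or without replicate 4. Such adaptors did not share a direction: AP-1-2beta, of the same list, was lower at -0.53 ± 0.06 (adjusted p = 0.000532, limma). Over the 6 protease and lysosomal lists together, 20 of 50 genes were lower and 14 higher, with a median of -0.068. Of all features, 23.6% were lower and 13.4% higher.

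**Figure D3:**
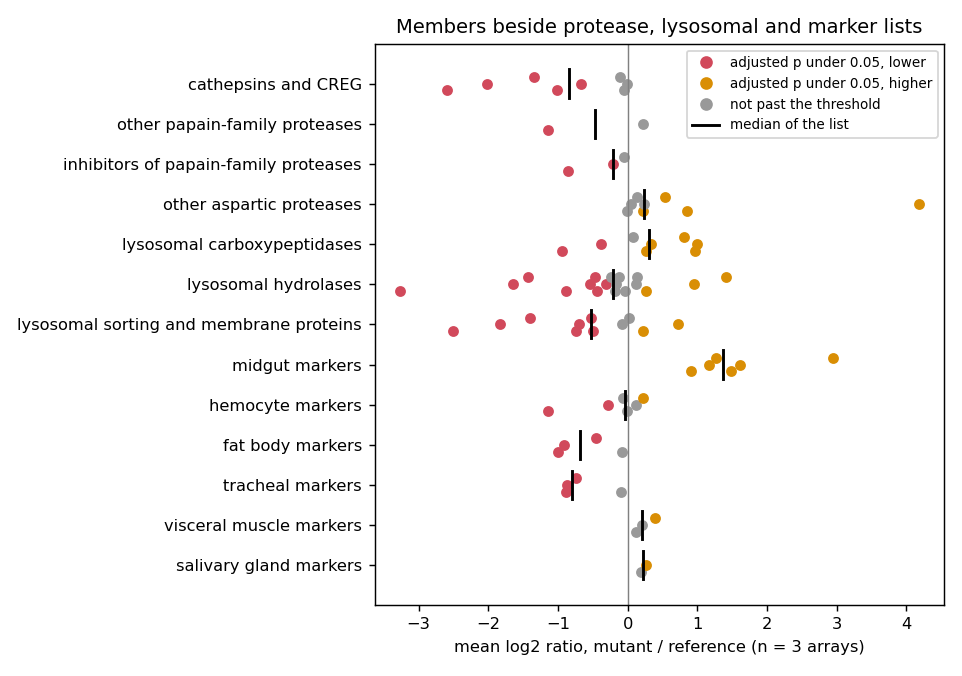
Mean log2 ratio of each tested gene (horizontal axis), by list, with the 8 tested cathepsin and CREG genes in the top row. Colours show the limma call at an adjusted p of 0.05, and the black bar is the median of the list, -0.84 in the top row and 1.37 for the midgut markers.

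Markers of the tissues that a dissected midgut could carry went both ways. Over all features, 23.6% were lower and 13.4% higher. Of 4 fat body markers tested, 3 were lower and 0 higher (the same at an unadjusted p under 0.05), with medians of -0.92, -0.36 and -0.78 on replicates 3, 4 and 6. That is the same order of arrays as for CtsK1 (-2.32, -1.69 and -2.07), while CREG, CtsL1, cathD and CtsB had other orders. The hemocyte marker crq (-1.01, -1.30 and -1.12) had the order of CREG. With 3 arrays such orders are easily shared, and a tie between any of these genes and a tissue was not tested. Fbp1 at -1.01 ± 0.31 (adjusted p = 0.000503), Lsp2 at -0.92 ± 0.34 (adjusted p = 0.00108) and Fbp2 at -0.46 ± 0.31 (adjusted p = 0.0179) were the lower genes, and the call of Fbp2 was lost without replicate 3. Of 4 tracheal markers 3 were lower and 0 higher (the same at an unadjusted p under 0.05), with a median of -0.81. They were btl at -0.88 ± 0.13 (adjusted p = 0.000102), serp at -0.87 ± 0.30 (adjusted p = 0.00092) and verm at -0.75 ± 0.28 (adjusted p = 0.00151), whose 5 probes ranged from -1.0 to -0.14.

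Hemocyte markers had a median of -0.041, with 2 of 6 lower and 1 higher, beside 23.6% lower and 13.4% higher among all features. The scavenger receptor gene crq was at -1.14 ± 0.15 (adjusted p = 4e-05) and Pxn at -0.28 ± 0.18 (adjusted p = 0.0312), while Hml, which marks differentiated hemocytes, was at 0.23 ± 0.12 (adjusted p = 0.0384). The calls of Pxn and Hml were lost without replicate 3 and without replicate 6. All 6 midgut markers tested were higher, with a median of 1.37. They included Amy-d at 2.94 ± 0.42 (adjusted p = 1.48e-05), lambdaTry at 1.61 ± 0.78 (adjusted p = 0.00229), Amy-p at 1.48 ± 0.31 (adjusted p = 8.57e-05) and alphaTry at 1.27 ± 0.17 (adjusted p = 3.42e-05). The 2 probes of Amy-p disagreed, at 0.18 and 2.78. Of 3 visceral muscle markers 1 was higher, up at 0.40 ± 0.18 (adjusted p = 0.00796), and of 2 salivary gland markers 1 was higher, Sgs1 at 0.26 ± 0.05 (adjusted p = 0.0138). Both of these calls were lost without replicate 3, and without replicate 4 there were 2 muscle markers higher. The part of RNA from any of these tissues in the ratios of the cathepsins and CREG was not tested.

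The 5 named genes nearest to CREG, by the root mean square difference of log2 ratios over the 3 arrays, were CG8112 (0.23), Ctr1B (0.25), Npc2a (0.29), CG3829 (0.30) and Zip89B (0.32). Ctr1B encodes a copper importer and Zip89B a zinc transporter of the ZIP family. CG8112 was at -2.34, -2.56 and -2.90 on replicates 3, 4 and 6, so that, like CREG, it was least low on replicate 3. For CtsL1 the nearest genes were vap (0.21), RhoBTB (0.22), BNIP3 (0.24), Rab14 (0.28) and CG14132 (0.28). BNIP3 encodes a mitochondrial receptor for autophagy and Rab14 a small GTPase of endosomes. Replicate 3 was the highest array for each of these 5, from -0.98 for BNIP3 to -1.16 for Rab14, but all lay below the -0.75 of CtsL1 there. With 3 arrays, this likeness reflects mostly the mean ratio.

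Genes that flank the cathepsins and CREG along the chromosomes were compared with them, a comparison chosen after the ratios were seen. Flanking protein-coding genes came from the RefSeq gene order, and 14 of the 18 could be tested. Of these, 4 were lower, 1 higher and 9 did not pass, where 23.6% of all features were lower and 13.4% higher. The share lower was thus close to that of all features, and whether a gene and its neighbours move together was not tested. Beside CREG, sds22 and Sur-8 stood at -0.14 ± 0.03 (adjusted p = 0.11) and 0.30 ± 0.12 (adjusted p = 0.0145). CG9040 and CG17361 beside CtsK1 stood at 0.17 ± 0.08 (adjusted p = 0.0682) and -0.12 ± 0.15 (adjusted p = 0.244). Beside CtsB, rdgB and amrt stood at -0.037 ± 0.024 and -0.16 ± 0.07 and did not pass (adjusted p = 0.648 and 0.0836).

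Around the other genes the picture was mixed. The tested neighbour of CtsL1 is Rpn13, which encodes a ubiquitin receptor of the proteasome, and it was lower at -0.88 ± 0.11 (adjusted p = 9.18e-05). The tested neighbour of cathD is puml, at -0.96 ± 0.16 (adjusted p = 0.000107), close to the -1.01 of cathD itself. Conversely, CtsL2 lies next to CG6357, the papain-family gene described above. CtsL2 was at -0.048 and CG6357 at -1.15, with no overlap between their arrays. CtsK2, at -0.12, lies next to CG4853, which was lower at -0.55 ± 0.07 (adjusted p = 0.000502). For CtsL3 and CtsL4 the flanking genes ranged from -0.15 to 0.15 and did not pass.

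**Figure D4:**
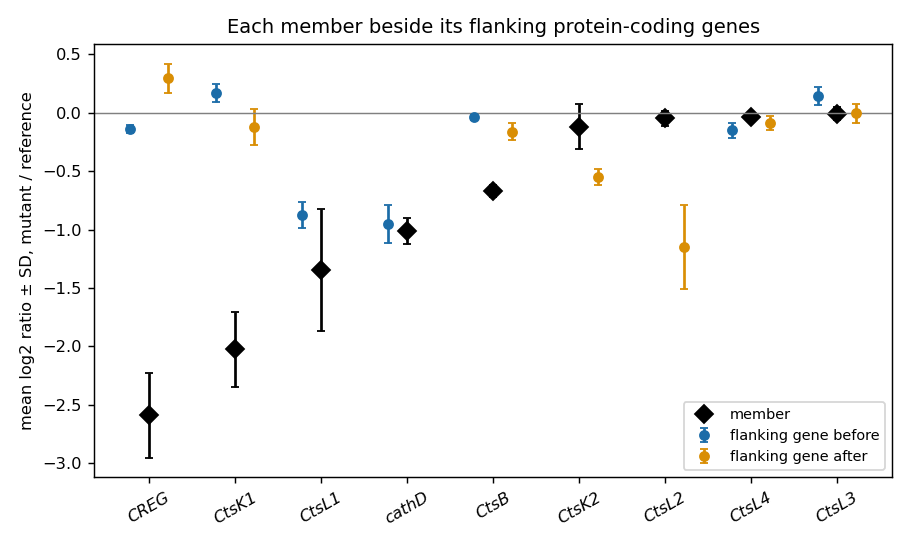
Mean log2 ratio ± SD over the arrays (vertical axis) of each of the 9 genes (diamonds) and of the protein-coding genes before (blue) and after (orange) it in the RefSeq gene order, where tested. CREG at -2.59 lies between neighbours at -0.14 and 0.30, and cathD at -1.01 lies beside a neighbour at -0.96.

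The ratios of the 5 low genes held their sign and their side of the threshold under each of the 13 alternatives tried. Features on 2 arrays, single probes, robust eBayes and the stricter thresholds could not change a sign, since they leave the means of these genes as they are. CREG ranged from -2.79 to -2.45, CtsK1 from -2.19 to -1.88, CtsL1 from -1.65 to -1.19, cathD from -1.11 to -0.95 and CtsB from -0.77 to -0.61. The zero point of the arrays shifts every gene together. Centring on the probes of chemosensory receptors, which serve smell and taste, put the median of all features at -0.092, and 81.4% of calls were then lower, against 63.8% with each array centred on its median and 47.3% on the values as deposited. The signs of CtsL3 and CtsL2 depended on that choice: CtsL3 was at 0.0545 as deposited and at -0.11 with receptor centring, and CtsL2 at 0.012 and -0.15. CtsK2 stayed below 0, between -0.22 and -0.042 over the alternatives that gave it a value.

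**Figure D5:**
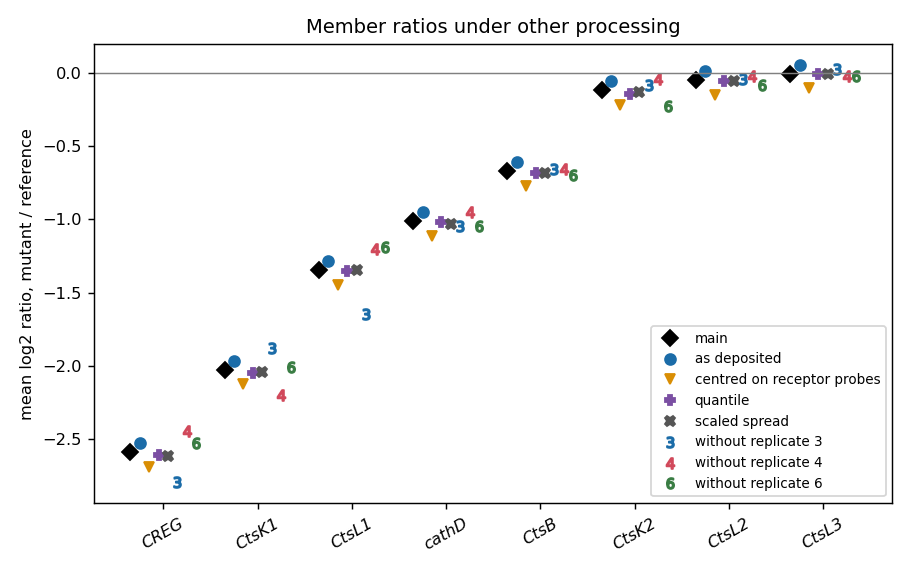
Mean log2 ratio (vertical axis) of the 8 tested genes under the main processing (diamonds), other zero points and normalizations, and with 1 array left out (digits name the replicate left out). CREG stays between -2.79 and -2.45, and CtsL1 shifts most, to -1.65 without replicate 3.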

How the data were processed

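The authors deposited 1 value per probe and array, taken as a log2 ratio, for 20000 probes on 3 two-channel arrays. Per the labels, RNA was amplified before it was labelled. The scanner software and any background correction or spot filter are not known here. The log2 scale was read from the deposited values: below 1.5, adding a constant for each array and raising 2 to the sum gave whole multiples of 0.001 in 100% of cases (within 0.02 of a step), so a constant had been subtracted from each array. Gene symbols came from the platform annotation, and 10824 of its 10828 single-symbol probes were matched by gene ID to RefSeq (Release 6 plus ISO1 MT), which was used for names and gene order. Arrays were centred on their medians and the probes of a gene averaged. Features present on all arrays were tested against 0, two-sided, in limma 3.58.1 (R 4.3.3; lmFit, eBayes, 6.88 degrees of freedom), with Benjamini-Hochberg adjustment over 13027 features at 0.05. The members and lists were chosen with earlier results of these data known. The rule for naming took all members, EcR, in each list the 4 genes with the largest absolute ratio among those past the threshold, and the 5 genes nearest to CREG and to CtsL1. Swim, Gga, AP-1gamma, AP-1-2beta, LManI, LManIV, LManVI and the flanking genes were named after their values were seen. Alternatives were other zero points, scaling, quantile normalization, features on 2 arrays, single probes, robust eBayes, stricter thresholds and leaving out each replicate. Sequences were not analysed here. Python 3.11.15 was used for the other steps.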

Additional observations from a re-analysis of the deposited data

How the results depend on the processing

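Of the 8 tested cathepsin and CREG genes, 5 passed the threshold under each of the 13 alternatives, without replicate 3, 4 or 6 included. Of all features 4824 passed, and 2787 to 4614 did with 1 replicate left out, 3122 at an adjusted p under 0.01 and 1772 with a change of at least 1.5-fold required as well. Of the 50 list genes 34 passed, 20 of them with at least 1.5-fold, and 25 to 35 with 1 replicate left out. No paired analysis was possible because the mutant samples are the single group and share 1 reference. A background correction, a filter on dim probes and the slide as a block were not run, and signal over background is unknown.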
